A study of Rattus norvegicus with 183 samples.

Results

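Voltage-gated sodium channels, voltage-gated calcium channels and HCN channels are the pores that set when and how fast a neuron fires. Their genes were followed in bulk polyA RNA of outbred laboratory rats, in tissue labelled as posterior ventral tegmental area. The region lies in the midbrain and is rich in dopamine neurons. The genes were taken by symbol: Scn or Hcn followed by a digit, Cacna, Cacnb or Cacng, without Scn4b. The rule gave 43 of the 38354 genes in the table. Of these, 37 passed a filter on low values (a mean of at least 1 on the log2(CPM + 1) scale) that 15536 genes passed, where CPM is a count scaled so that each library sums to 1000000. The questions were which of these channels, pacemaker channels among them, follow the dopamine neuron genes and which follow the markers of other cells. A further question was what their levels are in libraries with little dopamine neuron RNA.

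The series describes 183 samples of this 1 region, of which 31 are labelled as removed and were not used here. The others have 1 library each. No treatment, sex, age or batch is given, so there are no treatment groups. The only label that divides the libraries is the form of the identifier, which was decimal in 63, hexadecimal in 88 and another form in 1. Of these libraries, 17 carry an identity that the submitters corrected after a genotype check, 12 of them from an unknown label.

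Sodium and calcium channels have a large pore-forming subunit, encoded by a single gene, and smaller auxiliary subunits that set gating, trafficking and place in the membrane. Sodium channels carry the upstroke of the action potential, and their beta subunits are adhesion proteins that also change gating. Calcium channels of the L, P/Q, N, R and T types couple voltage to calcium entry, and HCN channels, built from Hcn subunits alone or with accessory proteins, open on hyperpolarisation and depolarise the cell back towards threshold. Midbrain dopamine neurons fire on their own in a slow, regular rhythm, to which the L-type pore Cacna1d, HCN channels and the sodium leak channel Nalcn are known to contribute.

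The promoter sequences of 5 of these genes are shown first, because the members that moved together most closely include neighbours in a cluster of sodium channel genes on chromosome 3. Sequences of 250 bases before the start were found for 27 of the 43 genes in a RefSeq table (GRCr8). They are written 5′ to 3′ on the strand of the gene. For Scn2a, Cacng3 and Scn8a the start used by that table lies inside the outermost end of the gene, and the whole Scn8a window lies inside it. The first 3 are Scn2a (chr3:70710706-70710955, plus strand), Scn3a (chr3:70666199-70666448, minus strand) and Scn9a (chr3:71701378-71701627, minus strand), whose RNA rose and fell together between libraries. Scn8a (chr7:133860977-133861226, plus strand) is shown because its RNA fell with the dopamine neuron score described below, with which the first 3 rose. Cacng3 (chr1:186632312-186632561, plus strand) is shown because it held 2 copies, in capitals, of the left arm of the RE1 element, the site of the neuronal gene repressor REST.
Scn2a: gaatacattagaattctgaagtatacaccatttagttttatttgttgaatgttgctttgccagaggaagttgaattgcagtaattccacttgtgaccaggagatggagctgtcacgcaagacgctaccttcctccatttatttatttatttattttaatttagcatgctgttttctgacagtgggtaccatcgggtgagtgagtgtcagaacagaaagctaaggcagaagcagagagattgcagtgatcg
Scn3a: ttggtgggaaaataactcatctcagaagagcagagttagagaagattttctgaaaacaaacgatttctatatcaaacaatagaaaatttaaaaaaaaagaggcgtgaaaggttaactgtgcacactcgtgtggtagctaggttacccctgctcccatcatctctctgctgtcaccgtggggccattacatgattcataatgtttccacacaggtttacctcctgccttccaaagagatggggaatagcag
Scn9a: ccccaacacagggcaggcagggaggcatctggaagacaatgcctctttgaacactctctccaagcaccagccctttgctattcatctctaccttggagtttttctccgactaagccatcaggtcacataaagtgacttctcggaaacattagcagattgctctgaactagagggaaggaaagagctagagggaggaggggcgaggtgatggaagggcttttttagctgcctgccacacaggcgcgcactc
Scn8a: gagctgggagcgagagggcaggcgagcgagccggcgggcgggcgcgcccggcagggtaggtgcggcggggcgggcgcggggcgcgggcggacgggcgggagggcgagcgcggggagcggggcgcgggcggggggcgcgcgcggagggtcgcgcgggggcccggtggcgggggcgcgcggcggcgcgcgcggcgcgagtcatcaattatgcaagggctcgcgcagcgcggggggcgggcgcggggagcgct
Cacng3: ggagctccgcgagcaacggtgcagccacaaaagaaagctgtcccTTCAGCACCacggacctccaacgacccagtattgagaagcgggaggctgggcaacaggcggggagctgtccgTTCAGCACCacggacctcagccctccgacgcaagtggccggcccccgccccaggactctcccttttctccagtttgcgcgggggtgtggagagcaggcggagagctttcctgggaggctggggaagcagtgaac

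The promoters of Scn2a and Scn3a, which lie head to head on opposite strands, had a GC content of 39.6% and 41.6%, and that of Scn9a 52.4%. Scn8a stood at 86% and Cacng3 at 64.8%. The median was 62.8% over the 27 members with a sequence and 51.2% over all 33469 promoters of the table. The left arm of RE1 (TTCAGCACC on either strand) was found in 1 of the 27, Cacng3, with the first copy 206 to 198 bases before the start, and in 0.305% of all promoters. The TATA box (TATAAA) was found in 2, Cacna1s and Cacng2, against 12.9% of all promoters. The response element of the orphan nuclear receptors of the Nr4a family (AAAGGTCA) was in 0 of the 27 and in 1.24% of all promoters, and the cAMP response element (TGACGTCA) in 0 and 1.59%. These letters describe 1 window per gene and do not show binding.

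The libraries held totals of 15.2 to 57.2 (in units of 1000000 estimated counts). Dopamine neuron markers divided the libraries: Th, which makes the rate-limiting enzyme of dopamine synthesis, was at 3.47 CPM or less in 11 libraries and at 577 CPM or more in all others, and none lay between. These 11 libraries, 10 decimal and 1 hexadecimal, carry the same tissue label, but their defining markers go against it. The dopamine markers En1, Chrna6 and Slc6a3 reached at most 0.0412, 0.0422 and 0.121 CPM there. Other dopamine markers were not absent. Slc18a2 lay at 10.1 to 12.4 CPM, against 255 or more in the other libraries. Nr4a2, at 12.7 to 28.3 CPM, overlapped with its range of 23.9 to 105.4 CPM in the others. The 11 libraries were kept out of every slope below and are described at the end. Of the libraries with Th, 53 had a decimal identifier, 87 a hexadecimal one and 1 another form. Ranges and correlations below use all of these, and the fits with the identifier form as a covariate leave out the last (n = 140). In 6 of them the cortical marker Slc17a7 exceeded 100 CPM.

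Channel RNA was related to a dopamine neuron score, the mean standardised level of 10 marker genes (Th, Slc6a3, Slc18a2, Ddc, Nr4a2, Pitx3, En1, Slc10a4, Chrna6 and Dlk1), none of which is a channel of the set. A slope is the change in log2(CPM + 1) for 1 SD of the score between libraries, fitted with limma, a linear model that shares variance between genes, and p-values were adjusted by Benjamini-Hochberg over all 15536 genes. A gene was called at an adjusted p under 0.05. Of the 37 channel genes 22 rose with the score and 7 fell. Over all genes tested, 17.5% rose and 13.9% fell. The median slope was 0.11 over the channel genes and 0.0022 over all genes. In bulk tissue, fewer cells of a type and less RNA per cell cannot be told apart, and the p-values measure the spread between libraries.

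The dopamine score itself moved with other scores over the libraries with Th. Markers of large, fast-spiking projection neurons (Syt2, Vamp1, Nefh, Spp1, Pvalb and Cabp7) fell as it rose (Pearson r = -0.485, Spearman rho = -0.529, r = -0.527 without the 2 most distant libraries), as did nuclear-encoded respiratory chain genes (r = -0.316, rho = -0.299, r = -0.295 without those libraries). Markers of interpeduncular and habenular neurons rose with it (r = 0.409, rho = 0.272, r = 0.402 without them). They were the nicotinic receptor genes Chrna2, Chrna3 and Chrnb4, and Gpr151, which did not pass the filter on low values (median 0.249 CPM). Endothelial markers fell as well (r = -0.359, rho = -0.292, r = -0.338 without those 2 libraries). Of 19 scores tested, the projection neuron, interpeduncular and endothelial ones had a permutation p of 1e-05 (adjusted p = 6.33e-05), the smallest that 100000 resamples can give, and the respiratory chain one 0.00016 (adjusted p = 0.00076). The marker lists were chosen with earlier results of these data known, so these p-values are a description and not independent support. In decimal and hexadecimal libraries r was -0.323 and -0.570 for the projection neuron score, -0.337 and -0.333 for the respiratory chain 0.456 and 0.414 for the interpeduncular markers and -0.611 and -0.225 for the endothelial ones. Serotonin neuron markers (r = -0.286, rho = -0.189, r = -0.290 without them, permutation p = 0.00085, adjusted p = 0.00323) and oligodendrocyte markers (r = -0.203, rho = -0.235, r = -0.250 without them, permutation p = 0.0155, adjusted p = 0.0490) also fell as the score rose, at -0.294 in each form for the first and at -0.317 and -0.115 for the second. The serotonin rho did not pass (permutation adjusted p = 0.0652). The glutamate transporter gene Slc17a6 fell by rho (-0.302, permutation adjusted p = 0.00219) but did not pass by r (-0.160, permutation adjusted p = 0.139). General neuronal markers had an r of 0.0119, with 0.371 in decimal and -0.184 in hexadecimal libraries. The part of these scores in the slopes on the dopamine score was not tested beyond the fits that follow. With the projection neuron score as a covariate 12 channel genes rose and 4 fell, against 10.9% and 23.2% of all genes. With the respiratory chain score 15 rose and 7 fell (17.5% and 23.5%). With Th alone in place of the score 8 rose and 7 fell (17.2% and 32.5%).

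**Figure D1:**
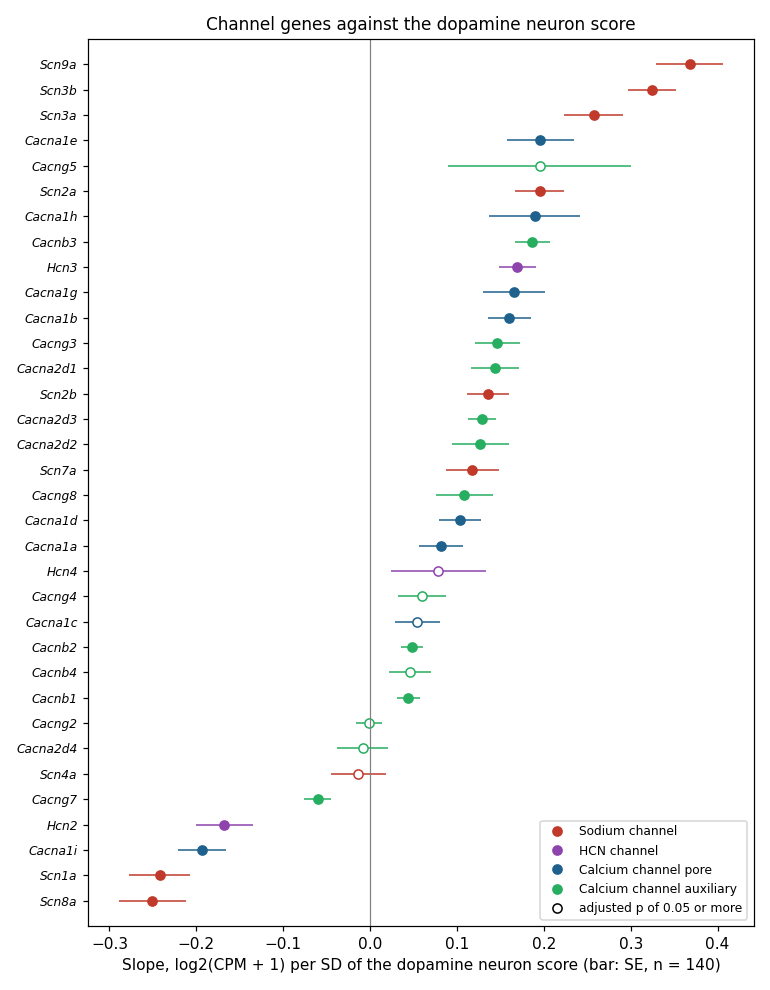
Slopes of 34 of the 37 channel genes on the dopamine neuron score in log2(CPM + 1) per SD of the score (horizontal axis), with the SE as a bar, over 140 libraries. Filled points had an adjusted p under 0.05. Scn9a, Scn3b and Scn3a stand at the top with 0.37, 0.32 and 0.26, and Scn1a and Scn8a at the bottom with -0.24 and -0.25.

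Among the sodium channel pores, 4 genes of the chromosome 3 cluster, Scn3a, Scn2a, Scn9a and Scn7a, rose with the dopamine score, and Scn1a and Scn8a fell. Scn9a, the pore best known from peripheral sensory neurons, ranged from 6.31 CPM over a median of 23.9 to 49.9 CPM in the libraries with Th. Its 10 lowest libraries all had a dopamine score below the mean, and its 10 highest all had one above it. Its slope was 0.37 ± 0.038 (SE, n = 140, limma adjusted p = 3.51e-15), with 0.34 over the decimal and 0.38 over the hexadecimal libraries.

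Scn3a, a pore most abundant in the developing brain, ranged from 19.8 over 55.9 to 80.1 CPM and had a slope of 0.26 ± 0.033 (limma adjusted p = 8.51e-11). Scn2a, the pore of axon initial segments and unmyelinated axons, ranged from 69.1 over 167 to 232 CPM with a slope of 0.20 ± 0.028 (adjusted p = 3.04e-09 in limma). Both rose within each identifier form, by 0.20 and 0.29 for Scn3a and by 0.19 and 0.20 for Scn2a in decimal and hexadecimal libraries. Scn7a, a channel that senses extracellular sodium, lay between 4.09 and 20.1 CPM (median 11.1) and rose by 0.12 ± 0.031 per SD (limma adjusted p = 0.00124). With Th alone as the score, Scn2a and Scn7a did not pass, at slopes of 0.063 and 0.028. Scn7a also did not pass in the decimal libraries (0.066) or without those that held cortical Slc17a7 (0.074).

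The pores that fell are best known from fast-firing neurons and myelinated axons. Scn8a, the pore of nodes of Ranvier and mature axon initial segments, ranged from 65.04 over 145.9 to 370 CPM. Its 10 highest libraries all had a score below the mean and its 10 lowest all one above it. Its slope was -0.25 ± 0.039 (limma adjusted p = 2.90e-08), and -0.19 in decimal and -0.29 in hexadecimal libraries, of which the first did not pass the test (adjusted p = 0.0615). Scn1a, the pore typical of parvalbumin interneurons and other fast-spiking cells, ranged from 79.7 over 155 to 391 CPM with a slope of -0.24 ± 0.035 (limma adjusted p = 2.84e-09), and fell by 0.17 and 0.28 in the 2 identifier forms. With the projection neuron score as a covariate the slope of Scn8a was -0.064 and no longer passed (adjusted p = 0.0820 in limma), while that of Scn1a was -0.087 and did. Scn4a, the pore of skeletal muscle, lay between 1.87 and 8.16 CPM and did not pass (slope -0.014 ± 0.031).

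The sodium channel beta subunits Scn3b and Scn2b rose with the score. Scn3b ranged from 100.2 over 271 to 410 CPM. Its 10 lowest libraries all had a score below the mean, and its 10 highest all had one above it. The slope was 0.32 ± 0.027 (limma adjusted p = 5.80e-21), with 0.30 and 0.34 in decimal and hexadecimal libraries. Scn2b, which is disulphide-linked to the pore, ranged from 149.2 over 287 to 385 CPM and rose by 0.14 ± 0.024 per SD (limma adjusted p = 1.32e-06).

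**Figure D2:**
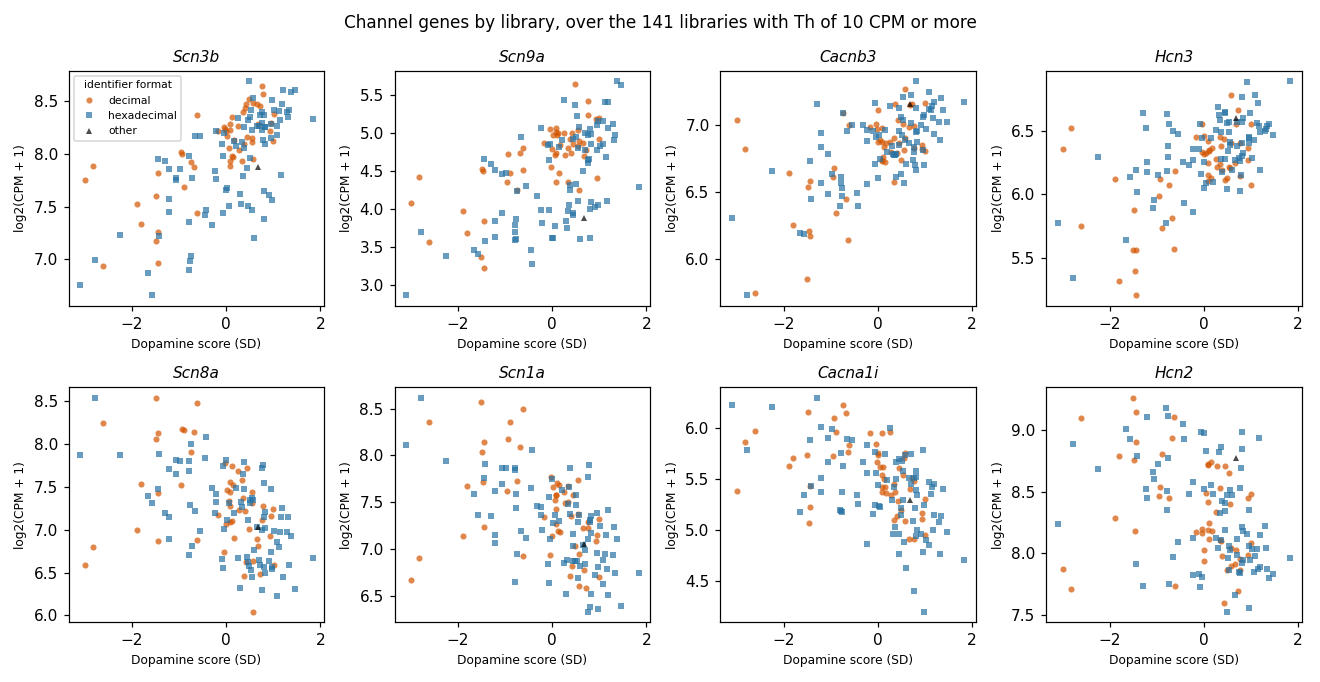
Levels of 8 channel genes in log2(CPM + 1) (vertical axes) against the dopamine neuron score in SD (horizontal axes), 1 point for each library with Th, by form of the identifier. Scn3b, Scn9a, Cacnb3 and Hcn3 rise from left to right and Scn8a, Scn1a, Cacna1i and Hcn2 fall, with r between 0.567 and 0.673 for the first 4 and between -0.526 and -0.386 for the last 4.

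Correlation without the covariate gave similar counts. By Pearson r with a permutation p adjusted over all genes, 22 channel genes rose and 7 fell (15.8% and 13% of all genes), and by Spearman rho 21 and 7 (15.6% and 13.8%). The largest r was that of Scn3b, 0.673 (rho = 0.662, r = 0.667 without the 2 most distant libraries), followed by Cacnb3 at 0.632 (rho = 0.564, r = 0.664). Scn1a had an r of -0.526 (rho = -0.538, r = -0.564). These 3 had a permutation p of 1e-05, the smallest possible, and an adjusted p of 0.000107.

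The HCN channel genes did not move as a family. Hcn3, whose opening responds little to cAMP, rose. It ranged from 36.0 over 79.1 to 117.4 CPM. As for Scn3b, the 10 lowest libraries all had a score below the mean and the 10 highest one above it. Its slope was 0.17 ± 0.021 (limma adjusted p = 2.00e-11), with 0.18 in decimal and 0.16 in hexadecimal libraries.

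Hcn2, a cAMP-sensitive channel of thalamus and brainstem, ranged from 184 over 297 to 613 CPM and fell by 0.17 ± 0.033 per SD (limma adjusted p = 1.65e-05). In the decimal libraries alone the slope of -0.14 did not pass (limma adjusted p = 0.0635). With Th alone it was -0.074, and with the projection neuron score as a covariate 0.010, and neither passed. Hcn4, the slow channel of the heart's pacemaker, ranged from 1.23 over 13.6 to 25.3 CPM and did not pass (0.079 ± 0.055, adjusted p = 0.286). It was lower at higher score with Th alone (-0.18) and with the respiratory chain score as a covariate (-0.092), and both of these passed (limma adjusted p = 0.00404 and 0.0417).

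Among the 8 calcium channel pores that passed the filter, 6 rose, 1 fell and 1 did not pass. Cacna1d, the L-type pore that opens at low voltages and is tied to pacemaking, ranged from 12.6 over 26.8 to 43.6 CPM. Its slope was 0.10 ± 0.024 (limma adjusted p = 0.000342), with 0.13 in hexadecimal libraries and 0.063 in decimal ones, where it did not pass (adjusted p = 0.215). It also did not pass with Th alone (0.0056), with the projection neuron score (0.039) or with the respiratory chain score (0.031) as a covariate. Cacna1c, the other neuronal L-type pore, ranged from 14.6 over 32.6 to 46.9 CPM and did not pass (0.054 ± 0.026, limma adjusted p = 0.103).

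The pores of presynaptic calcium entry rose. Cacna1e, the R-type pore, ranged from 33.5 over 114.5 to 171 CPM with a slope of 0.20 ± 0.039 (limma adjusted p = 1.81e-05). Cacna1b, the N-type pore, ranged from 34.0 over 83.8 to 115.98 CPM with a slope of 0.16 ± 0.025 (limma adjusted p = 3.23e-08), and Cacna1a, the P/Q-type pore, from 46.6 over 94.3 to 127.1 CPM with 0.082 ± 0.025 (limma adjusted p = 0.00759). Cacna1b and Cacna1e passed in each identifier form alone, and Cacna1a in neither (adjusted p = 0.0505 and 0.109 in limma).

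The T-type pores, which open near rest and drive rebound bursts, were divided. Cacna1h ranged from 9.78 over 61.02 to 104.8 CPM and rose by 0.19 ± 0.052 (limma adjusted p = 0.00223), and Cacna1g from 27.1 over 79.9 to 128.001 CPM by 0.17 ± 0.036 (limma adjusted p = 7.77e-05). Neither passed in the decimal libraries alone, with slopes of 0.11 and 0.14. Cacna1i ranged from 17.3 over 42.1 to 77.9 CPM and fell by 0.19 ± 0.028 (limma adjusted p = 4.32e-09), by 0.15 and 0.22 in decimal and hexadecimal libraries.

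Of the calcium channel auxiliary subunits, the beta subunit Cacnb3 had the slope with the smallest p-value. The beta subunits bind the pore inside the cell and carry it to the membrane. Cacnb3 ranged from 51.9 over 115.8 to 159.8 CPM and rose by 0.19 ± 0.020 (limma adjusted p = 8.88e-15), by 0.19 and 0.18 within the identifier forms. Cacnb2 and Cacnb1 rose by 0.048 ± 0.013 and 0.044 ± 0.013 (limma adjusted p = 0.00136 and 0.00508), over ranges of 35.0 to 61.998 and 49.5 to 101.3 CPM. Neither passed in the hexadecimal libraries alone (adjusted p = 0.0890 and 0.145 in limma). Cacnb4 did not pass (0.046 ± 0.024).

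The alpha2delta subunits, extracellular proteins of which Cacna2d1 and Cacna2d2 are the targets of gabapentin, rose in 3 of 4 cases. Cacna2d3 rose by 0.13 ± 0.016 (limma adjusted p = 2.37e-11) over a range of 43.7 to 98.1 CPM, and by 0.13 in both identifier forms. Cacna2d1 rose by 0.14 ± 0.027 and Cacna2d2 by 0.13 ± 0.033 (limma adjusted p = 6.88e-06 and 0.00124). Cacna2d4, a subunit of the retina, stayed between 0.329 and 3.38 CPM and did not pass.

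The gamma genes measured here are mostly auxiliary subunits of AMPA receptors (TARPs) by function and calcium channel subunits by name. Cacng3 ranged from 20.0 over 41.5 to 76.4 CPM and rose by 0.15 ± 0.026 (limma adjusted p = 1.63e-06), and under Th alone by 0.25. Cacng8 rose by 0.11 ± 0.032 and Cacng7 fell by 0.060 ± 0.016 (limma adjusted p = 0.00538 and 0.00111). Both calls were lost with median-of-ratios scaling of the libraries, at 0.071 and -0.045, and in the decimal libraries alone, at 0.059 and -0.043. Cacng2, Cacng4 and Cacng5 did not pass. Cacng5 had the widest range of the 37 by the ratio of highest to lowest, from 2.27 over 35.4 to 131.6 CPM, and its slope of 0.20 had an SE of 0.11.

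The slopes of the 2 identifier forms were compared in limma by an interaction term. No gene of 15536 was called (0%). At an unadjusted p under 0.05 there were 1226 genes (7.89%). Fitted alone, the decimal libraries called 16 channel genes as rising and 3 as falling (10.5% and 6.22% of all genes) and the hexadecimal ones 19 and 6 (13.1% and 10.3%). None of the 29 called slopes changed sign in either form. With Th alone as the score, with the projection neuron score as a covariate and with the respiratory chain score as a covariate, Cacna1a, Cacna1d, Cacna1g, Cacna1h, Cacna2d2, Cacnb2, Cacng7 and Cacng8 lost their call in each fit. Cacna1e, Scn2b and Hcn2 lost it with Th alone and with the projection neuron score, and Cacna1b, Cacna2d1, Scn2a and Scn7a with Th alone. Scn8a lost it with the projection neuron score. Across all 15 alternative settings 10 kept their direction and their call, among them Scn9a, Scn3b, Scn3a, Cacnb3, Hcn3, Cacna2d3 and Cacng3 rising and Scn1a and Cacna1i falling.

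Genes that act with these channels were read in the same fit. Of 8 other genes of pacemaking and its potassium brakes, 5 rose, against 17.5% of all genes. Kcnn3 (0.34 ± 0.034), the calcium-activated potassium channel of the afterhyperpolarisation, Kcnd3 (0.34 ± 0.024), a pore of the A-type current, its partner Kcnip4 (0.17 ± 0.018), Kcnj6 (0.30 ± 0.024), the potassium channel opened by D2 receptors, and the leak channel Nalcn (0.085 ± 0.026) rose. The Nalcn partners Unc79 and Unc80 did not pass.

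Of 17 genes for proteins that bind or regulate the channels, 5 rose and 7 fell, against 17.5% and 13.9% of all genes. The risers were led by Fgf13 (0.37 ± 0.014), an intracellular fibroblast growth factor homologue that binds sodium channels, and included the active-zone linker Rimbp2 (0.19 ± 0.021). Those that fell included Stac2 (-0.36 ± 0.035), an L-type channel adaptor, Cabp1 (-0.31 ± 0.055), a calcium-binding protein of L-type channels, and the ankyrin Ank3 (-0.094 ± 0.031), which anchors sodium channels at the axon initial segment. The HCN partner Pex5l did not pass (-0.035 ± 0.025).

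For 5 channel genes among those of steepest slope on the dopamine score, the 5 genes most alike, by Pearson r over the libraries with Th, were taken from all genes tested. For Scn9a they were Chl1 (r = 0.912), Fndc3a, Nexmif, Tenm1 and Scn3a, and for Scn3a they were Chl1 (0.963), Tenm1, Nexmif, Adarb2 and Scn2a. Chl1 is a neural adhesion molecule and Tenm1 a teneurin. For Scn3b they were Grb10 (r = 0.951), an imprinted adaptor gene, Tub, Marchf4, Glce and Prima1. Scn8a and Scn1a shared the potassium channel genes Kcna2 (r = 0.970 and 0.964) and Kcna1 and the gene Luzp1 and listed each other, with Atp8a2 for the first and Kcnc1 for the second. Marker levels and depth differ between these libraries, and their part in these r was not tested.

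The channel genes also followed the markers of other cells, and the share of all genes that did so was often large. A score is said to rise or fall with a gene whose slope on that score was called in limma, and the percentages are the shares of all genes called. The projection neuron score rose with 6 of the 37 (20%) and fell with 25 (52%). They included Scn8a (0.42), Scn1a (0.36), Hcn2 (0.36), Cacng7 (0.12) and Cacng2 (0.062), and the first 4 of these were among the 7 that fell with the dopamine score. Slc17a6, the vesicular glutamate transporter of subcortical neurons, rose with 12 (15.1%) and fell with 19 (37.9%). Scn8a and Scn1a led its risers again (0.41 and 0.38 per SD) and Cacng5 its fallers (-0.83). By identifier form, the projection neuron score rose with 6 and fell with 21 in decimal libraries (12.8% and 36.2%) and with 6 and 24 in hexadecimal ones (20.4% and 48.2%). For Slc17a6 the counts were 11 and 13 (13% and 30.5%) and 8 and 14 (10.4% and 22.3%).

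Markers of interpeduncular and habenular neurons went the other way, with 23 rising (47.9%) and 5 falling (19%). Cacng5, the TARP that varied most, had the steepest slope on this score, 1.08 log2 units per SD, with 1.13 in decimal and 1.05 in hexadecimal libraries. The counts were 23 and 5 (31.9% and 11.4%) and 22 and 6 (43.8% and 18.6%) in the 2 forms. GABA neuron markers rose with 23 (36.8%) and fell with 3 (13.7%), and the steepest were Cacng5 (0.61), Cacna1h (0.33) and Hcn4 (0.29). In decimal libraries 13 rose and 0 fell with the GABA score in limma (9.6% and 3.54%), and in hexadecimal ones 21 and 1 (32% and 11.1%). Scaled by median-of-ratios size factors the counts were 14 and 3 (13.1% and 14.5%).

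Serotonin, cholinergic and cortical markers each moved with 11 or fewer of the channel genes. Serotonin neuron markers rose with 3 (7.14%) and fell with 8 (7.29%), cholinergic or motor neuron markers with 4 (5.12%) and 2 (9.76%), and cortical markers with 2 (6.23%) and 2 (1.25%). With size factors the cortical counts were 0 and 2 (3.28% and 2.41%). Within the identifier forms limma called 0 and 0 for the cortical markers, in decimal (1.25% and 0.0193%) and in hexadecimal libraries (2.01% and 0.56%), with 6 and 1 and with 2 and 2 at an unadjusted p under 0.05. The cholinergic counts were 5 and 2 in decimal libraries (4.86% and 7.7%) and 0 and 0 in hexadecimal ones (0.174% and 0.18%), where 5 and 1 had an unadjusted p under 0.05 in limma. The serotonin counts were 3 and 8 (12.6% and 6.48%) and 1 and 4 (1.61% and 1.82%). General neuronal markers rose with 8 (23.2%) and fell with 25 (52.4%), but in decimal libraries with 11 and 5 (11.2% and 23.2%) and in hexadecimal ones with 7 and 24 (23.6% and 51.5%).

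The respiratory chain score rose with 4, among them Hcn2 (0.20), Cacng7 (0.10) and Cacng3 (0.091), and fell with 27, most steeply with Cacna1h (-0.50) and Hcn4 (-0.48). Over all genes 27.2% rose and 50.1% fell with it. By identifier form the counts were 2 and 24 in decimal (16.6% and 25%) and 5 and 27 in hexadecimal libraries (26.4% and 50.2%), and with size factors 8 and 26 (37.2% and 41.1%). No label gives the RNA quality of a sample.

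Oligodendrocyte markers rose with 3 channel genes (15.1%) and fell with 26 (34.8%). The counts were 0 and 23 in decimal (6.21% and 15.4%) and 3 and 24 in hexadecimal libraries (11.3% and 27.8%) in limma. Astrocyte markers rose with 25 (53.8%) and fell with 8 (23.2%), but in decimal libraries with 2 and 1 (22.2% and 5.2%) and in hexadecimal ones with 26 and 6 (52.7% and 24%). Markers of oligodendrocyte precursors rose with 26 (52.2%) and fell with 5 (22.6%), those of meningeal fibroblasts with 24 (52%) and 7 (21%) and those of ependyma with 23 (51.4%) and 8 (20.7%). The precursor counts were 10 and 0 in decimal libraries (22.6% and 3.44%), where 16 and 1 had an unadjusted p under 0.05 in limma, and 24 and 5 in hexadecimal ones (50% and 23%). Ependymal markers gave 12 and 4 in decimal (20.8% and 6.37%) and 22 and 8 in hexadecimal libraries (49.5% and 21%).

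For vascular and immune markers the counts differed with the scaling of the libraries and between the identifier forms. Microglial markers rose with 14 (44.6%) and fell with 11 (13.2%), but with size factors with 2 and 17 (17.3% and 15.6%). Endothelial markers rose with 13 (45.2%) and fell with 5 (15.6%), and with size factors with 3 and 7 (17.7% and 16.6%). Mural cell markers rose with 26 (53.7%) and fell with 6 (23.1%), and with size factors with 20 and 9 (37.8% and 36.8%). In decimal libraries the counts were 3 and 11 for microglia (25.7% and 7.87%), 0 and 5 for endothelium (15.3% and 4.18%, with 2 and 6 at an unadjusted p under 0.05 in limma) and 9 and 4 for mural cells (30% and 5.3%). In hexadecimal libraries they were 14 and 8 (41.3% and 12.9%), 16 and 4 (44.5% and 15.4%) and 25 and 5 (51.6% and 23.9%). Choroid plexus markers rose with 0 (5.18%) and fell with 1 (4.63%), and striated muscle markers with 0 and 0 (1.11% and 0.689%) in limma. At an unadjusted p under 0.05 these were 0 and 6 for choroid plexus and 2 and 8 for striated muscle. Most markers of both scores did not pass the filter on low values, which limits what these scores can show. In libraries with Th the choroid plexus markers Ttr and Folr1 had medians of 0.277 and 0.229 CPM. The muscle markers Ckm, Myh1 and Tnnt3 had 0.306, 0.359 and 0.516 CPM. The choroid plexus counts were 0 and 1 in decimal (4.6% and 0.695%) and 0 and 0 in hexadecimal libraries (2% and 1.91%), with 0 and 2 and with 0 and 4 unadjusted.

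Fitting 7 scores together gave the slope on each score with the others held fixed, though related scores remain hard to tell apart in such a fit. The scores for dopamine neurons, large projection neurons, Slc17a6, GABA neurons, cortical neurons, oligodendrocytes and the respiratory chain entered 1 limma model with the identifier form. On the dopamine score 10 channel genes rose (16.6%) and 5 fell (30.7%). The risers were Cacng3 (0.24 ± 0.028), Scn9a (0.21 ± 0.038), Scn3b (0.21 ± 0.024), Cacnb3 (0.15 ± 0.016), Hcn3 (0.15 ± 0.017), Scn3a, Cacna2d3, Scn2a, Cacnb1 and Cacna1b. Those that fell included Cacna1i (-0.21 ± 0.025), Scn1a (-0.15 ± 0.018) and Scn8a (-0.12 ± 0.020). Fitted in decimal libraries alone, 7 rose and 5 fell (9.99% and 13%), and in hexadecimal ones 11 and 5 (10.5% and 19.1%).

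In this joint fit the pacemaker L-type pore Cacna1d had a slope of 0.0081 ± 0.020 on the dopamine score and did not pass. It rose with Slc17a6 (0.12 ± 0.027) and fell with the projection neuron (-0.12 ± 0.031) and respiratory chain (-0.14 ± 0.021) scores. The T-type pores Cacna1g and Cacna1h, at 0.039 and -0.0054, and the P/Q-type pore Cacna1a, at 0.014, did not pass on the dopamine score either. Hcn2 was at 0.026 ± 0.021 on the dopamine score and rose by 0.33 ± 0.033 with the projection neuron score.

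On the projection neuron score of the joint fit 7 channel genes rose (12.8%) and 18 fell (36.3%). Besides Hcn2 the risers included Scn8a (0.31) and Scn1a (0.18). Slc17a6 rose with 15 (23.1%) and fell with 5 (14.7%), and led with Scn7a (0.40) and Cacna2d1 (0.38), while Cacng5 fell with it by 0.78. The Slc17a6 and projection neuron scores were themselves related (r = 0.718 over the 140 libraries), and Scn7a (0.40 and -0.28) and Cacna2d1 (0.38 and -0.32) had slopes of opposite sign on them. The respiratory chain score rose with 5 (26.7%) and fell with 24 (41%). The GABA score rose with 16 (7.02%) and fell with 1 (2.86%), the oligodendrocyte score with 1 (9.93%) and 19 (15.8%), and the cortical score with 4 (3.32%) and 0 (0.0965%).

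**Figure D3:**
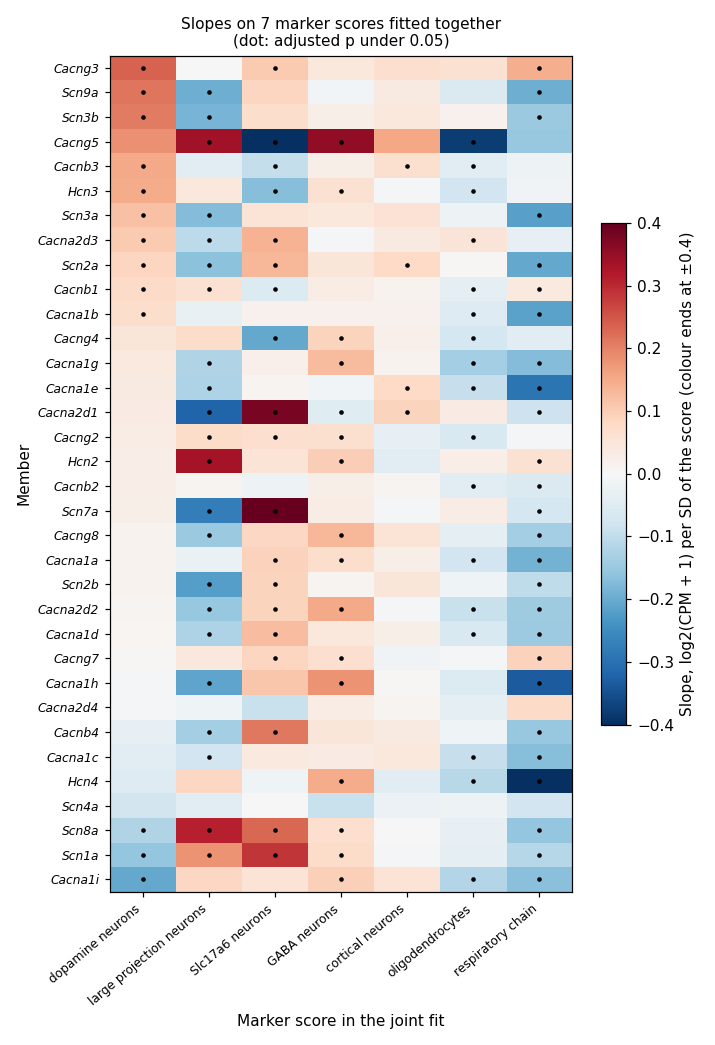
Slopes of 34 of the 37 channel genes (rows, ordered by the dopamine slope) on 7 marker scores fitted together (columns), as colour in log2(CPM + 1) per SD of the score, with colour ending at ±0.4. Dots mark an adjusted p under 0.05. The dopamine column has 10 dots toward the top, where Cacng5 alone has none, and 3 at the bottom, and the projection neuron column is darkest red for Cacng5, Hcn2 and Scn8a.

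The channel genes formed groups that moved together between libraries. The 37 genes make 666 pairs, whose p-values are not adjusted here. The mean r was 0.224, against 0.0503 over all pairs of the 15536 genes, and 58 pairs exceeded 0.8 while 56 lay under -0.5. The closest pair was Scn1a and Scn8a (r = 0.957, rho = 0.957, permutation p = 1e-05, r = 0.952 without the 2 most distant libraries), with 0.973 in decimal and 0.946 in hexadecimal libraries. Next came the N- and R-type pores Cacna1b and Cacna1e (r = 0.942, rho = 0.927, permutation p = 1e-05).

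Neighbours in the genome fell on both sides. The file places Scn3a at 70666198, Scn2a at 70710862, Scn1a at 71479870, Scn9a at 71701377 and Scn7a at 71846454 on chromosome 3, and each of these is an end of the gene in GRCr8. Scn2a and Scn3a, whose promoters are printed above, moved together (r = 0.937, rho = 0.878, permutation p = 1e-05), and so did Scn3a with Scn9a (r = 0.887, rho = 0.864) and Scn2a with Scn9a (r = 0.829, rho = 0.796). Scn1a lies between Scn2a and Scn9a. With Scn2a it had an r of -0.139 (rho = -0.0963, permutation p = 0.1001) and with Scn9a one of -0.312 (rho = -0.290, permutation p = 0.00015). Its close partner Scn8a is on chromosome 7.

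Other neighbours also differed. Cacng4 and Cacng5 on chromosome 10 had an r of 0.904 (rho = 0.921, permutation p = 1e-05), while Cacng7 and Cacng8 on chromosome 1 had one of -0.449 (rho = -0.495, permutation p = 1e-05). The beta subunits Scn3b and Scn2b moved together (r = 0.778, rho = 0.771, permutation p = 1e-05).

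Within the HCN family, Hcn2 and Hcn3 moved in opposite directions (r = -0.553, rho = -0.534, permutation p = 1e-05). Among the T-type pores Cacna1g and Cacna1h had an r of 0.879 (rho = 0.946), and Cacna1i had 0.381 and 0.404 with them.

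**Figure D4:**
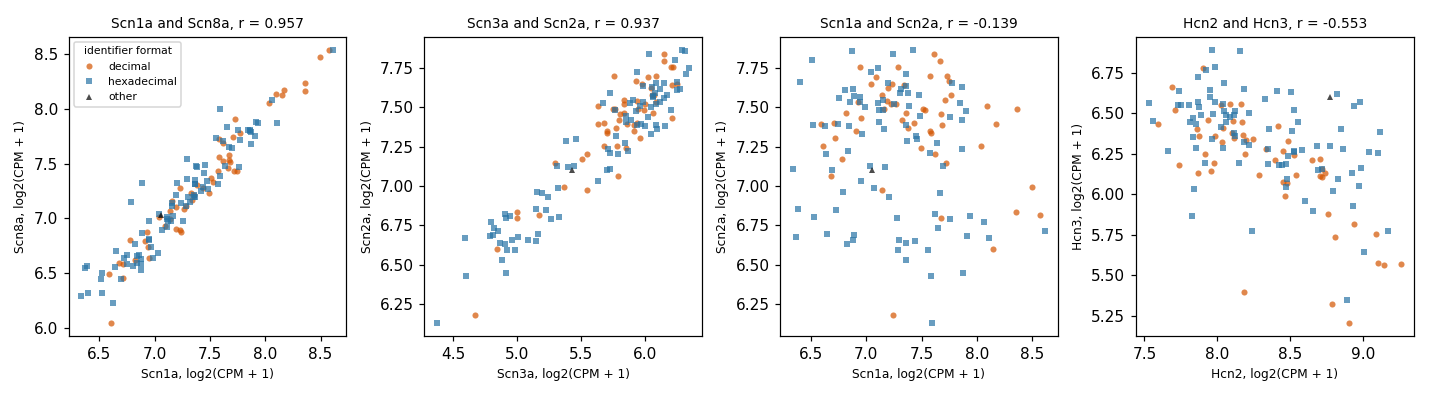
Levels of 4 pairs of sodium or HCN channel genes against each other in log2(CPM + 1), 1 point for each library with Th, by form of the identifier. Scn1a with Scn8a and Scn3a with Scn2a lie along a rising line (r = 0.957 and 0.937), Scn1a with Scn2a forms a cloud (r = -0.139) and Hcn2 with Hcn3 falls (r = -0.553).

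Between the identifier forms, limma called 3 channel genes higher in hexadecimal libraries (14.3% of all genes) and 12 lower (23.7%). The higher ones were Hcn3 (0.18 ± 0.052), Cacng3 (0.14 ± 0.059) and Cacnb1 (0.071 ± 0.028). The lower ones included Hcn4 (-0.29 ± 0.11) and Cacna1h (-0.29 ± 0.11). The median total was 27.5 in decimal and 22.9 in hexadecimal libraries with Th (in units of 1000000 estimated counts). With the log2 total as a covariate 0 were higher (5.65%) and 2 lower (12%), and with the dopamine score as a covariate 1 and 19 (15.4% and 26.3%). Form and depth move together, and no label says what the forms stand for.

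In the 11 libraries with little dopamine neuron RNA, the channel genes split by a different line. These libraries were set apart by a measured value, so their levels are a description without a test. Their dopamine markers summed to 32.4 to 49.7 CPM against 1733 to 8747 in the others, with 9 of the 10 lower without overlap. Th, by which the libraries were split, is part of the sum and among the 9, so its own gap was set by the rule. All 5 cortical markers were higher without overlap (2297 to 2551 against 4.91 to 1140 CPM), all 6 oligodendrocyte markers lower (1467 to 5044 against 18488 to 47932 CPM), and 4 of 6 projection neuron markers lower (185 to 251 against 611 to 7002 CPM). The part of each of these in the levels below was not tested.

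Of the 37 channel genes, 6 were lower in all 11 libraries than in any library with Th (10.2% of all genes) and 13 were higher in all (8.87%). Scn7a had the largest gap on the low side, at 0.243 to 0.845 CPM against 4.09 to 20.1, with a median 26.9 times lower. Scn9a followed at 2.30 to 4.19 against 6.31 to 49.9 CPM, 8.88 times lower by median. Hcn3 (24.5 to 29.8 against 36.0 to 117.4 CPM), Hcn2 (101.7 to 127.9 against 184 to 613 CPM), Cacna2d2 and Scn4a were the others, by 3.14, 2.51, 3.45 and 4.40 times.

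Of the 13 higher genes, 9 rose with the dopamine score among the libraries with Th, 2 fell and 2 did not pass, and of the 6 lower genes 4 rose, 1 fell and 1 did not pass. Cacna1i (147.997 to 190 against 17.3 to 77.9 CPM) and Cacna2d1 (266 to 335 against 36.7 to 111.1 CPM) were 4.06 and 4.01 times higher by median, and the TARPs Cacng3 and Cacng8 3.69 and 3.06 times. Cacnb3 stood at 271 to 302 CPM against 51.9 to 159.8. Cacna1e, Cacnb1, Scn2a, Cacnb4, Cacna1c, Cacna1d and Cacna1a were higher by 2.91 to 1.79 times. Cacnb3, Cacng3 and Scn2a, which rose with the dopamine score among libraries with Th, were thus higher in the 11 libraries with little Th.

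The other 18 genes overlapped. Scn3b, which had the largest r with the dopamine score, lay at 225 to 249 CPM in these 11 libraries, inside its range of 100.2 to 410 in the others. Scn8a at 253 to 331 CPM also lay inside its range. Scn1a was at 61.8 to 86.03 CPM against 79.7 to 391, so that Scn1a and Scn8a, the closest pair among libraries with Th, stood apart here: the median of Scn1a was 2.07 times lower and that of Scn8a 1.98 times higher.

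**Figure D5:**
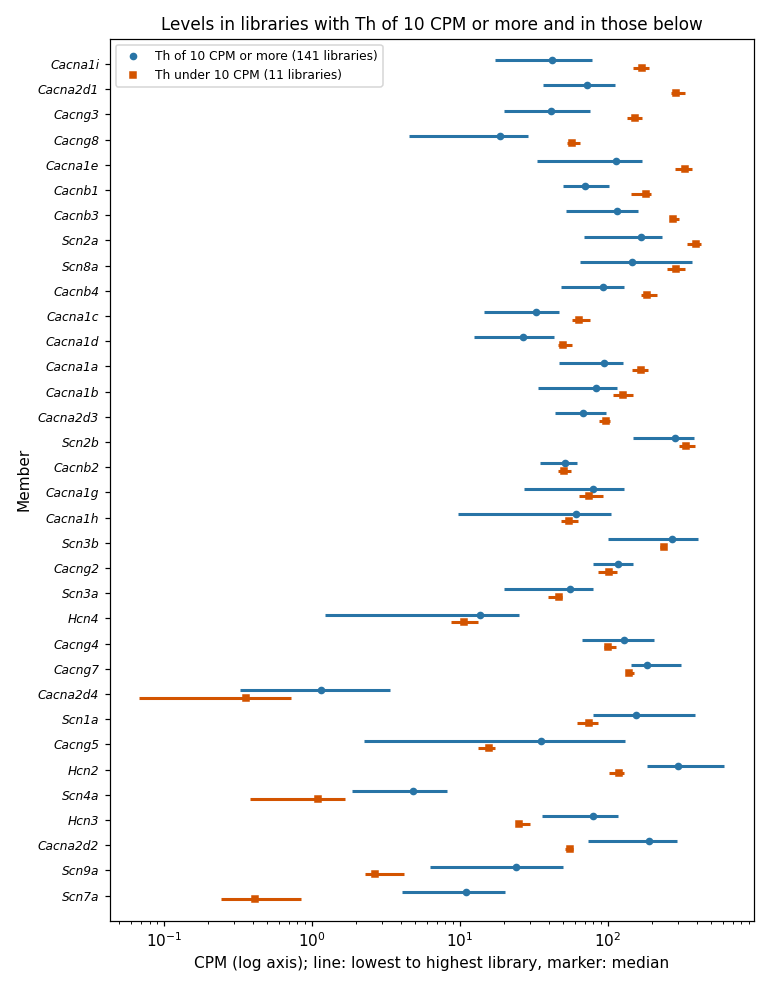
Lowest, median and highest CPM (log axis) of 34 of the 37 channel genes in libraries with Th of 10 CPM or more (circles) and in the 11 below (squares), ordered by the ratio of the medians plus 1 CPM. CPM is not divided by transcript length, so levels are compared within a gene only. Cacna1i and Cacna2d1 at the top are 4.06 and 4.01 times higher in the 11 libraries, and Scn9a and Scn7a at the bottom 8.88 and 26.9 times lower.

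The 6 channel genes under the filter are best known from other tissues. The sensory neuron pores Scn10a and Scn11a reached at most 0.591 and 0.539 CPM in libraries with Th, the muscle L-type pore Cacna1s and the retinal one Cacna1f 0.592 and 0.500 CPM, and the muscle gamma subunit Cacng1 0.236 CPM. Cacng6 reached 5.46 CPM with a median of 0.297 CPM. Each was at 0 in some libraries, where up to 3 counts are allowed, which is 0.198 CPM in the smallest and 0.0525 CPM in the largest library. In the 11 libraries with little dopamine neuron RNA Scn11a was at 0.181 to 1.14 CPM and Cacng6 at 0.883 to 2.32 CPM, ranges that overlap with the others.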

How the data were processed

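Bulk polyA RNA was measured in posterior ventral tegmental area of outbred rats, 1 library per sample. The submitters' processing notes name kallisto 0.48, and no build is named in the sources used here. No header gives the unit. The deposited log2 values were read as log2(estimated count + 1): back-transformed, 55.7% of those above 0 and under 100 lay within 0.001 of a whole number, and the totals differed between libraries by up to 3.77 times. They were back-transformed, scaled to CPM and taken as log2(CPM + 1), with the pseudocount at 1 CPM and a filter at a mean of 1. Estimated counts cannot separate reads that fit near-identical genes, so members of one family can share them. The precision follows the depth: 3 counts are 0.198 CPM in the smallest and 0.0525 CPM in the largest library.

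Slopes on marker scores were fitted with limma 3.58.1 (R 4.3.3) over 15536 genes with the identifier form as a covariate, and p-values were adjusted by Benjamini-Hochberg. Each score is the mean standardised log2(CPM + 1) of its markers over the libraries with Th of at least 10 CPM, standardised again. Correlations used 100000 permutations (numpy 2.4.6, scipy 1.17.1). The scripts were tested on simulated data. Alternatives were the score, covariates, scaling, pseudocount, filter and left-out libraries. The channel genes, marker lists and tests were chosen with earlier results of these data known. The rule for named genes took every channel gene that passed the filter, the genes of the pathway lists, and for the 3 steepest slopes in each direction the 5 genes most alike by r. Some of these genes are not reported here, though counts over the channel genes include them. The p-values measure the spread between libraries, and no label says which animals they came from beyond the sample name.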

Additional observations from a re-analysis of the deposited data

How the results depend on the processing

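Of 555 slopes on the dopamine score under 15 alternatives, 457 kept their direction and their side of the threshold, as did 73 of 93 counts within 1.5 times. Of these alternatives, leaving out libraries with Tph2 over 20 CPM and using the respiratory chain and projection neuron scores together as covariates were chosen after seeing the data. The 22 rising channel genes became 8 with Th alone, 12 with the projection neuron score and 12 with both scores as covariates. The 7 falling ones became 4 with the projection neuron score and 3 in decimal libraries. The cause was not tested for these or for any value below, except that the decimal libraries are fewer.

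Slopes changed sign as follows. With Th alone they were -0.017 for Cacna1a, -0.011 for Cacna1c, -0.066 for Cacna1h, -0.0115 for Cacna2d2, 0.030 for Cacna2d4, -0.067 for Cacnb4, -0.030 for Cacng8 and -0.1805 for Hcn4. With the respiratory chain score they were -0.025 for Cacna1c, 0.0030 for Cacna2d4, -0.023 for Cacnb4 and -0.092 for Hcn4. With the projection neuron score they were -0.031 for Cacna1c, 0.037 for Cacng2, -0.033 for Cacng4, -0.15 for Cacng5, -0.0064 for Cacng8, 0.010 for Hcn2 and -0.041 for Hcn4. With both they were -0.054 for Cacna1c, -0.0045 for Cacna1g, -0.046 for Cacna1h, -0.021 for Cacna2d2, -0.0095 for Cacnb4, 0.031 for Cacng2, -0.0365 for Cacng4, -0.166 for Cacng5, 0.0040 for Cacng7, -0.029 for Cacng8, 0.013 for Hcn2 and -0.097 for Hcn4. Cacna2d4, which did not pass, stood at 0.0016 without Slc6a3 in the score, 0.0031 in hexadecimal libraries and 0.029 without the Tph2 libraries. Cacng2, which did not pass either, stood at 0.0021 with size factors and 0.0028 in decimal libraries.

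With median-of-ratios size factors, the channel genes that followed a score went from 26 to 17 for GABA neurons, from 6 to 11 for cholinergic or motor neurons, from 4 to 2 for cortical neurons, from 18 to 10 for endothelium and from 0 to 3 for striated muscle. With the dopamine score as a covariate they became 7 for cortical neurons, 31 for endothelium, 3 in place of 1 for choroid plexus and 2 for striated muscle. Without libraries with Slc17a7 over 100 CPM they became 9 for cortical neurons and 2 for choroid plexus. Of the identifier forms, 3 channel genes higher in hexadecimal libraries became 1 with the dopamine score and 0 with the log2 total as a covariate, and 12 lower became 19 and 2. No paired analysis was possible because no label numbers the samples across groups.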
